A study of Mus musculus with 8 samples.

Results

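The Prader-Willi locus is an imprinted stretch of mouse chromosome 7 that codes for small nucleolar RNAs (snoRNAs), and 210 of the 5518 small RNA rows counted here lie in it. They are the rows of chromosome 7 (mm10) between 59 and 60.2 Mb, chosen by position and not by their counts. All 210 are typed as snoRNA in the GENCODE annotation and lie on the minus strand. They are Snord64 and Snord107, each in 1 copy, 137 copies of Snord115 and 71 copies of Snord116.

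Small RNAs were counted in 8 libraries of total RNA from cultured mouse cells. Mouse embryonic stem (MES) cells, grown without feeder cells and with leukemia inhibitory factor, gave 2 libraries by TEsR, a method that ligates linkers to small RNAs, removes caps, amplifies, and captures targets by hybridisation without size selection. Mouse embryonic fibroblasts (MEFs) gave 4 libraries by TEsR and 2 by standard TruSeq small RNA sequencing. In the MEFs the gene of TRF2, which protects telomeres, was a conditional allele, with a Cre recombinase expressed from Rosa26 and switched on by 4-hydroxytamoxifen (0.6 µM for 48 hours). By their titles, 2 of the 4 MEF TEsR samples were induced and 2 uninduced, and both TruSeq samples were induced, although the name of the TruSeq table says control; groups follow the titles. The stem cells, the line B6G-2, are labelled as not induced, and they and the MEFs come from different sources. The MEF TEsR columns are coded mm and pm, letters that the labels do not explain. Induced and uninduced MEFs could therefore not be told apart and were not compared. The 4 MEF TEsR libraries are treated as 1 group of fibroblasts that holds both states, and any difference between these states adds to its spread. Separate cultures are not named in the labels for the samples of any group. P-values therefore reflect the spread between libraries alone, and that spread may be technical. In these bulk samples, fewer cells making an RNA and less of it per cell cannot be told apart.

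SnoRNAs of the C/D box class carry 2 short motifs, the C box near the 5′ end and the D box near the 3′ end, and most of them guide methylation of ribosomal or spliceosomal RNA. Those of the Prader-Willi locus are orphans in that no such ribosomal target is established for them. They are cut out of introns of the long Snrpn-Snhg14 transcript, which is made from the paternal chromosome only. Loss of the paternal Snord116 copies in humans is tied to Prader-Willi syndrome, and Snord115, known for its abundance in brain, can pair with the transcript of the serotonin receptor gene Htr2c.

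The single-copy snoRNAs are shown first because nearly all counts of the locus fell on them, followed by the commonest sequence of each repeated family and the only repeated copy with a count. Sequences are those of the GENCODE M21 transcripts (mm10), 5′ to 3′, with the C box (TGATGA) and the D box (CTGA) in capitals.
Snord64: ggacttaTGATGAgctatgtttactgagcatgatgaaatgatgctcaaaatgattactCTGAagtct
Snord107: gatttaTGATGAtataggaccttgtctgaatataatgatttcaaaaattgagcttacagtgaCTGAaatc
Snord115 (Gm24866): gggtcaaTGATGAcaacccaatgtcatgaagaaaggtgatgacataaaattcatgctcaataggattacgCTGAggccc
Snord116 (Gm22285): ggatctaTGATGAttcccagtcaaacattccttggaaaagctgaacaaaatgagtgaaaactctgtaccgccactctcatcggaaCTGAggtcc
Snord115 (Gm25934): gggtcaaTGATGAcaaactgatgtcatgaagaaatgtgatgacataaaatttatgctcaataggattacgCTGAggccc

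Snord64 lies at chr7:59978808-59978874 (67 bases) and Snord107 at chr7:59980876-59980945 (70 bases), both within the gene annotated as Gm38393 on the same strand. Each overlaps an exon of 1 Gm38393 transcript, while 2 further transcripts have Snord64 in an intron and 1 has Snord107 in one. RefSeq gives Snord64 only 46 bases (59978811 to 59978856). The 208 repeated rows lie within the bounds of Snhg14 in GENCODE (59307924 to 59975759), and Snord64 and Snord107 outside them. RefSeq draws Snhg14 longer (59272737 to 60450177), with all 210 rows inside. Snord64 and Snord107 differ by 27 edits (substitutions, insertions and deletions over the whole sequence). The nearest other row of the whole table is 25 edits from Snord64 and 27 from Snord107. Searched on the RNA strand, TGATGA in the first 20 bases and CTGA in the last 15 were both present in 191 of the 210 rows, against 8.79% of the 1297 snoRNA rows elsewhere, which also hold other snoRNA classes.

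Of the 210 rows, 3 had any count in the 8 libraries and 207 had none. Snord64 and Snord107 had counts in all 8 libraries. The third was Gm25934, a Snord115 copy at chr7:59351409-59351487, with 1 count in the TruSeq library with index CGATGT and 0 elsewhere. The Snord116 family had 0 counts in every library. For a family with no count, the limit of 3 counts corresponds to 1.08 and 1.12 counts per 1000000 counts of the library (CPM) in the MES libraries, 0.796 to 0.931 CPM in the MEF TEsR libraries and 0.335 and 0.355 CPM in the TruSeq libraries. These limits cover counting error only, and they hold only for reads that could be assigned to a row. Which rows the TEsR capture probes targeted is not given in the sources used here, so a 0 in TEsR may also be an RNA that was not captured.

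Most repeated copies cannot be told from one another by sequence. Of the 137 Snord115 rows, 97 had exactly the sequence of another row, and the commonest sequence stood in 33 rows. Of the 71 Snord116 rows, 50 shared their sequence, the commonest standing in 30 rows. The 208 rows held 57 distinct Snord115 and 28 distinct Snord116 sequences. How reads that match several copies were treated is not stated in the sources used here, and only the TEsR columns are tagged q10, a term that the labels do not explain. Outside the locus, 431 rows also had a sequence that occurs in another row. Of these, 1.16% had a count in MES, 0.696% in MEF TEsR and 3.02% in TruSeq, with at most 2, 2 and 37 counts on a row. Among the 4484 rows outside the locus that were 3 or more edits from any other row, 9.83%, 10.7% and 13.7% had a count. In the locus, none of the 147 rows with a shared sequence had a count. For these rows a low level of the RNA, an unassigned read and, in TEsR, a missing probe cannot be told apart.

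A smaller number of copies could be told apart over their whole sequence among the rows counted here. Copies elsewhere in the genome were not searched, and a read that covers part of an RNA may be less distinct. In 17 repeated rows, 13 of Snord115 and 4 of Snord116, the sequence was 3 or more edits from every other row, and these 17 held the 1 count of Gm25934 in all libraries together. The most distinct copies were Gm22373 of Snord116, at 23 edits, and Gm25499, Gm24983 and Gm22496 of Snord115, at 19, 17 and 14 edits, and all 4 had 0 counts. A further 44 repeated rows were 1 or 2 edits from another row, and all had 0 counts. Outside the locus, 321 rows of all types were at 1 or 2 edits, and 6.85% of them had a count in MES, 5.61% in MEF TEsR and 15.9% in TruSeq. Of the 62 snoRNA rows among them, 24.2%, 25.8% and 48.4% had a count, against 18.7%, 15.7% and 22.4% of the 1199 snoRNA rows at 3 or more edits. In the plot of sequence distance along the locus, Gm25499 and Gm22496 stand at 637 and 631 kb from Snord64, close to Gm25934 at 627 kb, and Gm24983 stands at 520.0 kb.

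**Figure D1:**
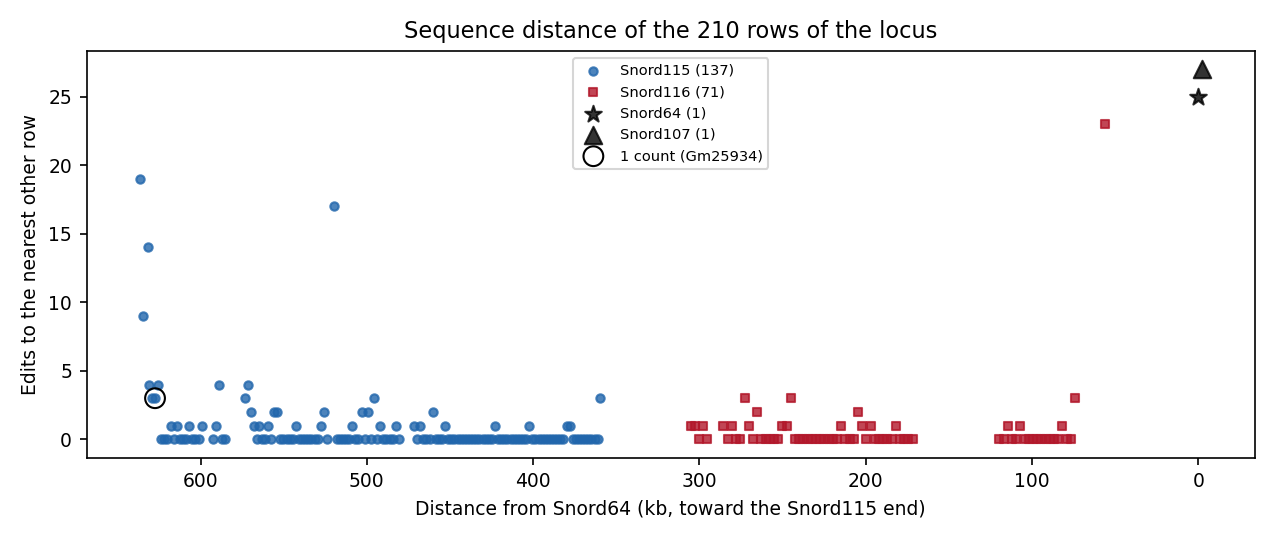
Each point is 1 of the 210 rows, placed by its distance from Snord64 in kb (x axis) and by the edits that separate it from the nearest other row of the table (y axis), coloured by family. Snord64 and Snord107, at 25 and 27 edits, stand above the repeated copies, 147 of which lie at 0. The ring marks Gm25934, with 1 count.

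Snord64 was readily counted in stem cells and lay near the counting limit in fibroblasts when both were read by TEsR. The MES libraries held 256 and 245 counts, or 91.9 and 91.5 CPM. The MEF TEsR libraries held 4 (mmS1), 15 (mmS2), 3 (pmS1) and 2 (pmS2) counts, or 1.07, 3.98, 0.848 and 0.621 CPM. The groups did not overlap, but how many other rows also separated in this way was not counted. Of the 4 fibroblast libraries, 3 lay within 1 count of the limit of 3 counts. On the CPM scale the mean was 56.3-fold higher in MES, at 91.7 ± 0.274 (SD, n = 2) against 1.63 ± 1.58 (SD, n = 4). Without the library mmS2, which has most of the fibroblast counts, the ratio was 108-fold.

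In the fit over all rows, Snord64 was higher in MES by a log2 fold change of 6.48 ± 0.68 (SE), with an adjusted p of 1.24e-05 by edgeR's quasi-likelihood test with Benjamini-Hochberg adjustment. It passed the count filter through the MES libraries, as only mmS2 of the fibroblast libraries reached the minimum of 10 counts. The direction of its call was therefore not free of the filter. Calls were common in this comparison: 75.1% of 273 tested rows passed in either direction, with 43.6% higher and 31.5% lower in MES. Among the snoRNA rows alone, 62.0% of 150 were higher in MES and 14.0% lower, so a call in this direction is the usual outcome for a snoRNA. By size, 19 of the 150 snoRNA rows had a larger log2 fold change than Snord64. Under the scaling used, the tested rows together had a median of 0.45. With library size only that median was -0.38, and Snord64 stood at 5.76. With snoRNA rows fitted alone it stood at 4.87.

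Snord107 was also higher in stem cells, by a smaller amount. It had 93 and 71 counts in MES (33.4 and 26.5 CPM). In MEF TEsR it had 17 (mmS1), 37 (mmS2), 33 (pmS1) and 17 (pmS2) counts, or 4.56, 9.82, 9.33 and 5.28 CPM. The groups did not overlap, again without a count of other rows that separated, and every fibroblast library lay above the limit of 3 counts. The mean was 4.13-fold higher in MES on the CPM scale. The log2 fold change was 2.81 ± 0.46 (SE), with an adjusted p of 0.000247 by edgeR, and 72 of the 150 snoRNA rows had a larger one. With snoRNA rows fitted alone it was 1.21 and no longer passed (edgeR adjusted p = 0.0523).

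**Figure D2:**
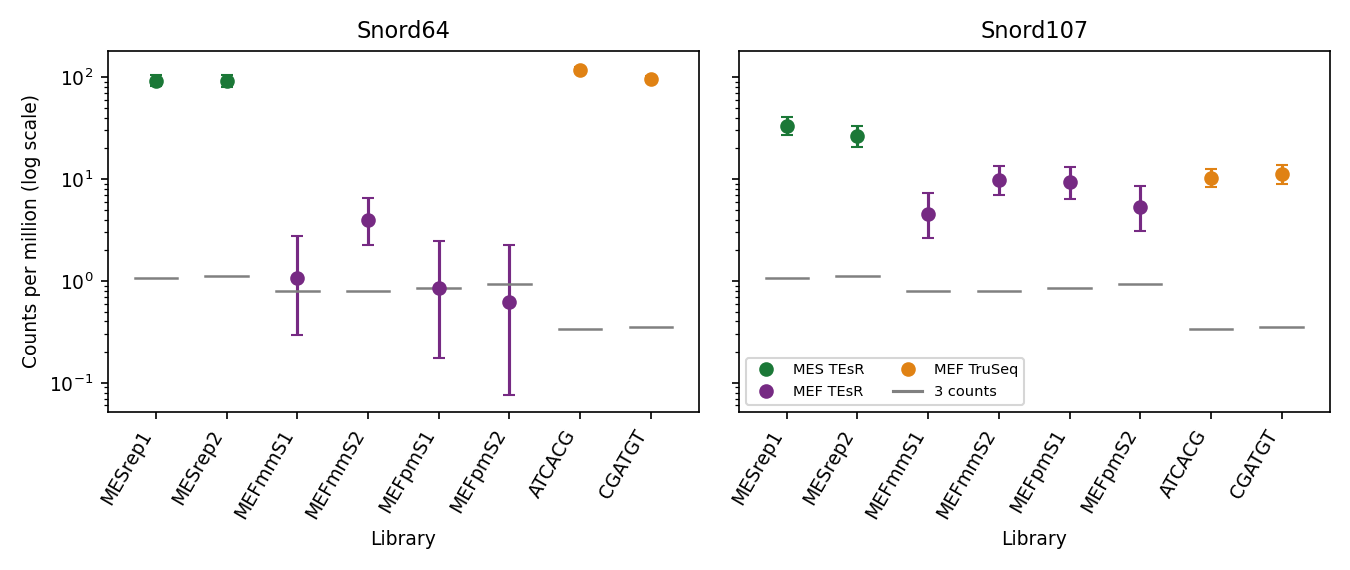
CPM on a log axis for Snord64 (left) and Snord107 (right) in each library, with exact 95% binomial intervals that cover counting error only and grey lines at 3 counts. Snord64 falls to 0.621 to 3.98 CPM in the 4 MEF TEsR libraries and lies at 91.5 or higher elsewhere, while Snord107 stays between 4.56 and 33.4 CPM in all 8.

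The ratio of the members within a library was chosen after their values were seen; it does not depend on depth or scaling. In MES, Snord64 had 2.75 and 3.45 counts for each count of Snord107. In MEF TEsR the ratio was 0.235, 0.405, 0.0909 and 0.118, so that Snord107 led in all 4 libraries. In MEF TruSeq it was 11.5 and 8.60, and Snord64 led again. Per base of annotated length the ratios were 1.04 times these (67 against 70 bases), for example 2.88 in the first MES library.

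As a share of the pair, Snord64 took 73.4% and 77.5% in MES, with exact Clopper-Pearson 95% intervals of 68.4 to 77.9% and 72.5 to 82.0%. It took 19.0%, 28.8%, 8.33% and 10.5% in MEF TEsR, where the intervals reached at most 43.1%. It took 92.0% and 89.6% in TruSeq, with intervals from 87.4 to 93.5%. The intervals of the 3 groups did not overlap. The mean log2 ratio was 1.62 ± 0.23 (SD, n = 2) in MES, -2.48 ± 0.98 (SD, n = 4) in MEF TEsR and 3.31 ± 0.29 (SD, n = 2) in TruSeq. The difference between MES and MEF TEsR was 4.11 on the log2 scale, or 17.2-fold. The exact two-sided permutation test of 2 against 4 libraries gave p = 0.133, the smallest that this design allows. No library left out brought the difference below 3.78.

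**Figure D3:**
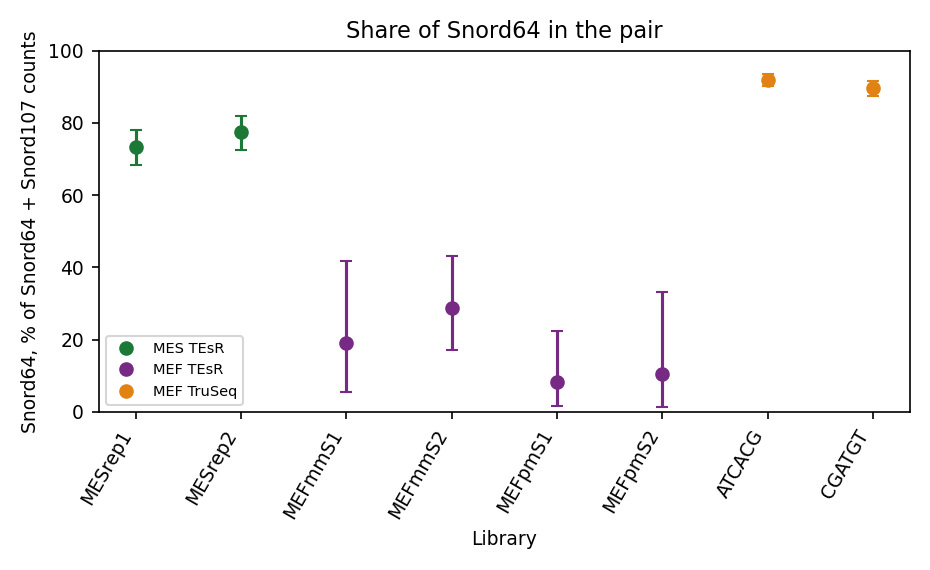
Snord64 as a percentage of the Snord64 and Snord107 counts together (y axis, from 0 to 100) in each library, with exact 95% binomial intervals that cover counting error only. The 4 MEF TEsR libraries lie at 28.8% or below, the MES libraries at 73.4 and 77.5%, and the TruSeq libraries at 92.0 and 89.6%.

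In fibroblasts the library methods gave very different levels of Snord64 and similar levels of Snord107. Snord64 had 1055 and 808 counts in the TruSeq libraries (118 and 95.7 CPM), a mean 65.5-fold above that of MEF TEsR, and 126-fold without mmS2. MEF TEsR over TruSeq stood at -5.30 ± 0.75 (SE) on the log2 scale, with an edgeR adjusted p of 2.31e-05, and at -2.82 with snoRNA rows fitted alone (edgeR adjusted p = 0.00209). Here too Snord64 passed the count filter through the group where it was high, the TruSeq libraries. Snord107 had 92 and 94 counts in TruSeq (10.3 and 11.1 CPM), just above the highest MEF TEsR library and with counting intervals that overlapped its own. It stood at 0.08 ± 0.62 (SE) on the log2 scale, with an edgeR adjusted p of 0.896, and its sign turned with the scaling, at -0.56 with library size only and 2.59 with snoRNA rows fitted alone. That last value passed the test (edgeR adjusted p = 0.00139).

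In this comparison 88.1% of 352 rows passed, 32.4% higher and 55.7% lower in MEF TEsR. Of 218 snoRNA rows, 76.1% were lower and 10.6% higher, so a lower level of Snord64 in TEsR is again what most snoRNA rows showed. The median log2 fold change of the tested snoRNA rows was -4.68, against -2.42 for all rows. Snord64 was near the middle, with 96 snoRNA rows below it. Snord107, at 0.08, had 186 of the 218 below it. The difference between the log2 ratios of the pair, -5.80 for MEF TEsR minus TruSeq, does not rest on the scaling (exact permutation p = 0.133, the smallest allowed). Both TruSeq samples were induced and the TEsR group mixes both states, so method and induction are not fully separate here. The instrument also differed (MiSeq for TEsR, HiSeq for TruSeq), as did the depth and the use of capture probes, and these cannot be told apart from the method.

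Across cell type and method at once, MES by TEsR and induced MEFs by TruSeq had similar CPM of Snord64, at 91.7 ± 0.274 and 106.7 ± 15.6 (SD, n = 2 each). Its direction depended on the scaling: MES over TruSeq stood at 1.14 ± 0.25 (SE) on the log2 scale (edgeR adjusted p = 0.00307) and at -0.22 with library size only (edgeR adjusted p = 0.416). Without the first MES library it no longer passed (1.11, edgeR adjusted p = 0.0766). Snord107 was 2.80-fold higher in MES on the CPM scale, at a log2 difference of 2.84 ± 0.34 (SE), with an edgeR adjusted p of 9.64e-05, and 1.48 with library size only. Of 352 tested rows, 86.6% passed, 36.6% higher and 50.0% lower in MES.

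**Figure D4:**
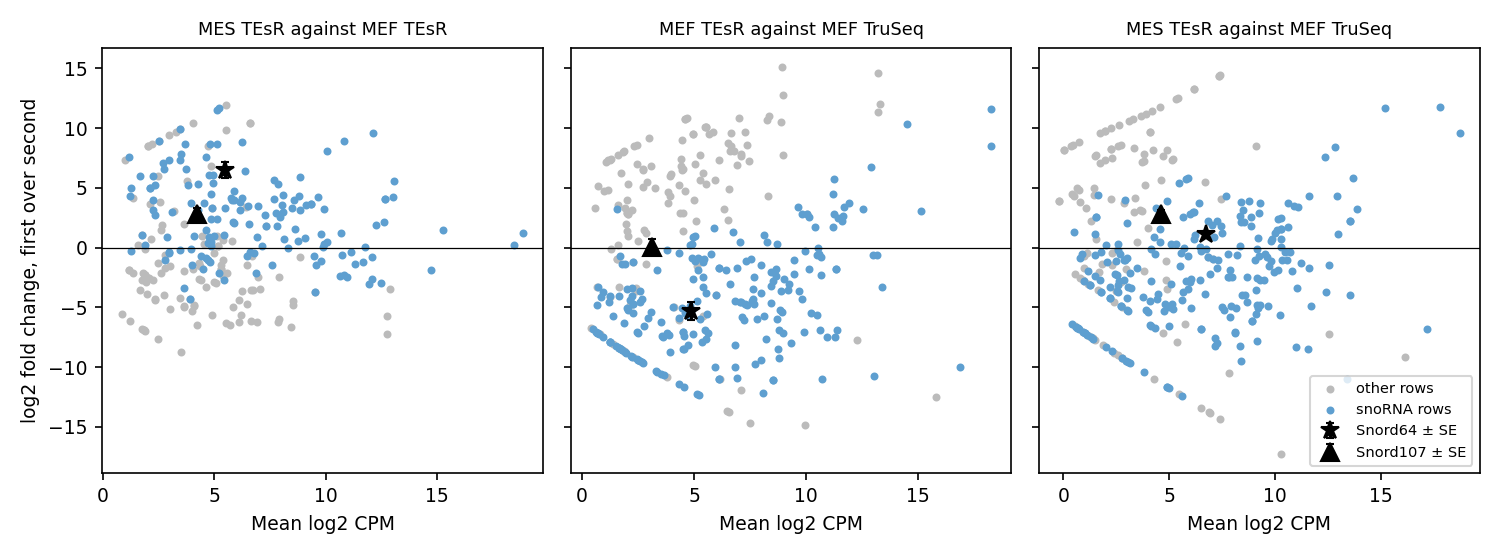
Log2 fold change (y axis, first-named group over second) against mean log2 CPM (x axis) for every tested row in the 3 comparisons, with snoRNA rows in blue, other rows in grey, and Snord64 (star) and Snord107 (triangle) with their SE. Snord64 lies at 6.48, -5.30 and 1.14 and Snord107 at 2.81, 0.08 and 2.84 in the panels from left to right; each pair of panels shares 1 group of libraries.

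The locus as a whole was a very small part of all snoRNA counts. It took 0.0126% and 0.0118% in MES, 0.000597%, 0.00140%, 0.00110% and 0.000621% in MEF TEsR, and 0.0169% and 0.0146% in TruSeq. The MES mean was 13.1-fold above that of MEF TEsR (exact permutation p = 0.133, the smallest allowed), and the groups did not overlap. Shares of other sets of snoRNA rows were not compared in this way. The shares of MES and TruSeq lay close together, and their order turned with the denominator. The 10 leading snoRNA rows were those with the highest count in any 1 library, so the deeper TruSeq libraries weighed more in this choice. Some were low in TEsR, such as Gm23246, with a mean of 6.43 CPM in MES and 14.4 CPM in MEF TEsR. Without these 10 rows, shares were 0.0969% and 0.104% in MES, 0.00889% to 0.0205% in MEF TEsR and 0.0842% and 0.0684% in TruSeq. In each library, its own 2 rows with most counts, taken over all types, held 67.8% to 83.1% of the counts.

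The rows whose pattern across the 8 libraries was most like that of each member were different ones. The measure was the root mean square difference of log2(CPM + 1), each row centred on its own mean, over 305 other rows that reached a group mean of 10 CPM. For Snord64 the nearest was Snord34 (0.43), with 496 and 439 counts in MES, 7 to 17 in MEF TEsR and 1210 and 941 in TruSeq. Gm26447 (0.61), Snord23 (0.65) and Snord99 (0.71) followed. For Snord107 the nearest were Gm24920 (0.46), Gm23136 (0.48), Gm22589 (0.54) and Snord16a (0.56). For Gm24920 the MES libraries held 233 and 218 counts, MEF TEsR 59 to 145 and TruSeq 221 and 239. Snord107 itself stood at rank 92 from Snord64, at a difference of 2.18. The 8 libraries share 3 groups and 2 methods, so this likeness is a description only.

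Few of the rows listed here for other imprinted small RNAs could be tested between MES and MEF TEsR, and imprinted rows outside these lists were not examined. Of 23 snoRNA rows of the imprinted Dlk1-Dio3 locus on chromosome 12, 1, Gm22981, was testable between MES and MEF TEsR. It had 11 and 14 counts in MES against 0 in all 4 fibroblast libraries. As it passed the count filter through MES alone, a call could only be higher in MES. In the TruSeq libraries this locus parted the samples of 1 group, as Gm23787 had 3718 counts with index ATCACG and 1 with CGATGT. Snord64 and Snord107 differed far less between these libraries. Among 5 imprinted miRNAs, Mir335 was at 4 and 6 counts for MES, at 0, 0, 29 and 13 for MEF TEsR, and was not called between them. Of 68 other tested snoRNA rows named Snord with a number, 41 were higher in MES than in MEF TEsR and 10 lower, with a median log2 fold change of 2.39. Snord64, at 6.48, lay above that median and Snord107, at 2.81, close to it.

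Total counts ran from 2676776 to 2785150 in MES, from 3221641 to 3768668 in MEF TEsR and from 8442960 to 8961221 in TruSeq. All 12 stem cell miRNA rows found had counts in MES (summed level 475 to 517 CPM), against 0 to 1.33 CPM in MEF TEsR and 0 in TruSeq. Of 9 fibroblast miRNA rows, 7 had counts in MEF TEsR (108 to 1003 CPM) and in TruSeq (44.1 to 83.1 CPM), and 2 in MES (4.11 to 5.74 CPM). Of 13 neuronal miRNA rows, the summed level was at most 1.12 CPM in MES, 0 to 18.6 CPM in MEF TEsR, nearly all of it Mir132, and at most 0.237 CPM in TruSeq. The neuronal rows of Mir124 and Mir9 were at 0 in every library. Each of these miRNAs stands in several rows, and how reads that match several rows were treated is not stated. Their 0 counts can therefore not be read as absence.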

How the data were processed

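The members, lists and tests were chosen with earlier results of these data known. The authors deposited raw counts of reads, as whole numbers, for the same 5518 rows in 2 tables. The build is mm10, and the tools named by the submitters' processing notes are bedtools 2.25.0, SAMtools 1.2.1, BWA 0.7.12 and cutadapt. For the roles of these tools, the treatment of reads matching several places and whether counting used strand, the answer is not given in the sources used here. Columns were assigned by name: 2 to MES samples, and 4 and 2 to the MEF TEsR and MEF TruSeq groups without a sample number. Types came from GENCODE M21 by Ensembl identifier (5453 rows matched; all 210 members at the same coordinates). Families were set by edit distance to the commonest Snord115 sequence and to Snord116l1.

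Each comparison was fitted on its own groups over all rows with the robust quasi-likelihood test of edgeR 4.0.16 (R 4.3.3), scaled by the trimmed mean of M-values, after a filter at a minimum count of 10. P-values were adjusted by Benjamini-Hochberg over the tested rows, and 0.05 was the threshold. The SE of a log2 fold change was worked back from this test, as its size divided by the square root of the F statistic. The fit was tested on simulated data. Only 2 of the 210 members passed the filter in each comparison. Alternatives included DESeq2 1.42.0. CPM use the library total, without scaling factors. Within groups, chi-square per degree of freedom was 21.9 or more, above sampling noise, so none was counted as a duplicate. Reads carried no molecular identifiers, so intervals and limits cover counting error only. Named rows were Snord64, Snord107, copies with counts and, by rule, the 4 rows nearest in pattern to each; the most distinct copies and single rows of other imprinted loci were picked after their values were seen.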

Additional observations from a re-analysis of the deposited data

Results flagged for a closer look

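Snord64 in the MEF TEsR library mmS2 stood apart from the other three of its group, at 3.98 CPM (15 counts) against 0.621 to 1.07 CPM. Its gap to the nearest library was 0.866 of the whole range, above Dixon's 95% critical value for 4 samples. Chance exceeds that value in about 1 in 20 groups for a single check. The rule was run on Snord64, Snord107, the locus share and the ratio of the pair, and flagged this value alone. A flag by chance is therefore more likely than 1 in 20. The same library had 37 counts of Snord107, close to the 33 of pmS1. Of the 12 stem cell miRNA rows it had counts on 2, with 3 of Mir292 and 2 of Mir295. Both were at 0 in the other MEF TEsR libraries. The remaining stem cell rows were at 0 in mmS2 too, among them Mir291a, Mir294 and Mir302a. Summed, the stem cell rows stood at 1.33 CPM in mmS2, against 475 to 517 CPM in MES. The 260 counts of Mir214 in mmS2 lay below the 1542 to 2810 of the other MEF TEsR libraries. The part of these miRNAs in the Snord64 level was not tested. Without mmS2, the log2 fold change of Snord64 in MES over MEF TEsR was 7.49 in place of 6.48.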

How the results depend on the processing

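Snord64 stayed higher in MES than in MEF TEsR under all 13 alternatives run (log2 fold change 4.87 to 7.49, edgeR or DESeq2 adjusted p at most 0.000326) and lower in MEF TEsR than in TruSeq under all 13 (-6.45 to -2.82, adjusted p at most 0.00209). The alternative that summed the repeated rows by family, 1 of each 13, could not differ from the main fit. Its summed rows held at most 1 count in a library and did not pass the filter. Snord107 in MES over MEF TEsR kept its call in 12 of 13 and lost it with snoRNA rows only (1.21). For MEF TEsR over TruSeq its direction was not set: -0.56 with library size only, 2.59 with snoRNA rows only, and -0.26 to 0.43 with 1 library left out. Snord64 in MES over TruSeq was -0.22 with library size only and 0.96 to 1.36 with 1 library left out, losing its call at 1.11 without MESrep1; the cause was not tested. With snoRNA rows only, fewer rows were tested, and 119, 184 and 187 rows passed in the 3 comparisons in place of 205, 310 and 305. With library size only, 101 rows were higher in MES than in TruSeq and 219 lower, against 129 and 176. The log2 ratio of locus shares without the 10 leading snoRNA rows was 2.97 (main 3.71) for MES over MEF TEsR, -2.57 (main -4.08) for MEF TEsR over TruSeq and 0.40 (main -0.37) for MES over TruSeq, where it was 0.051 over all counts. Leaving out 1 library with a single one remaining in a group assumes that it varies like the others. No paired analysis was possible because the MEF columns could not be assigned to sample numbers. Depth limits Snord64 in MEF TEsR, at 2 to 4 counts in 3 libraries.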
